A study of Arabidopsis thaliana with 32 samples.

Results

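The loci described here lie on the chromosome arms of Arabidopsis thaliana and gave at least 2-fold more signal in sahh1 seedlings than in wild-type seedlings at every age examined. A locus was taken when its group mean of log2 intensity was at least 1 higher in sahh1 at each of days 1, 4, 7 and 10. It also had to lie outside 5 ranges of locus tags around the centromeres and the chromosome 4 knob, with FWA and SDC left out. This rule found 33 of 26076 arm loci (0.127%) in a table of 30385 loci. Because the rule used the difference between genotypes, that difference is given for these loci as a description with no test.

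Whole seedlings were profiled in the sahh1 mutant, which lacks full activity of S-adenosylhomocysteine hydrolase 1, and in Columbia wild type, each at the ages of 1, 4, 7 and 10 days. The labels name no allele, and nothing in them separates organs or cell types. Each of the 8 groups had 4 single-colour arrays, which fell into 2 pairs of like arrays in all 8 groups. The arrays of a pair were averaged, which left 2 samples per group (n = 2). Separate cultures are not stated for the samples, so errors and p-values measure the spread between these samples, which may be technical. The fit uses a common spread of each locus over all 8 groups, so an error at a given age is not the spread of that age alone.

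S-adenosylhomocysteine is left over whenever a methyl group is taken from S-adenosylmethionine, and it inhibits the methyltransferases that made it. The hydrolase removes it and so keeps DNA and histone methylation running. In plants, DNA methylation and methylation of histone H3 on lysine 9 hold transposons, their remnants and many pseudogenes silent. Most such loci crowd around the centromeres, while a minority sits among ordinary genes on the arms. DNA methylation was not analysed here, and a level in whole seedlings cannot tell more expressing cells from more RNA per cell.

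The SAHH1 transcript itself was at 41.6% of wild type at day 1 (95% interval 29.1 to 59.4, limma adjusted p = 0.0117). Day 4 gave 34.5% (interval 24.2 to 49.3, adjusted p = 0.0144). At day 7 it reached 71.7% and at day 10 58.8%, without being called (adjusted p = 0.723 and 0.276). The day 1 call was lost without any single day 1 sample (adjusted p = 0.0634 to 0.108). The day 4 call was lost without wild-type day 4 sample 1 (0.0710) or sample 2 (0.106), with array weights (0.103) and with the groups of day 4 alone (0.542). The day 10 difference was called with 32 arrays as replicates (0.00124), with the array pair as a random block (0.00996), with array weights (0.0227) and without either sahh1 day 4 sample (0.00673). The 2 samples of sahh1 at day 4 were the least alike, since the SD of their difference was 0.749 on the log2 scale, against 0.184 to 0.359 in the remaining groups. With a common spread over the groups, errors given for day 4 may be too small. Arrays of day 4 had median intensities of 449 to 493 units, those of day 7 had 1793 to 1945, and those of days 1 and 10 had 956 to 1054, so levels are set side by side within an age. Among the seedling markers, RBCS1A, LHCB2.1 and GAPA were bright in all groups while the CAB2 probe set was dim. The 8 pollen and sperm markers ranged in summed level from 10.95 to 13.6 in sahh1 and from 11.03 to 13.5 in wild type on the log2 scale over all ages, with overlapping ranges at each age. The 3 endosperm markers, all dim, had summed levels of 5.72 to 5.82 in sahh1 against 5.79 to 5.87 in wild type at day 1, 7.03 to 7.07 against 6.85 to 6.97 at day 4, 6.73 to 6.77 against 6.76 to 6.96 at day 7 and 6.23 to 6.40 against 6.75 to 6.96 at day 10. They did not overlap between the genotypes at days 4 and 10, higher in sahh1 at day 4 and lower at day 10. The root hair genes EXPA7 (-1.44 at day 4, limma adjusted p = 0.0329, and -1.95 at day 10, adjusted p = 0.00444) and COBL9 (-1.91 at day 10, adjusted p = 0.00576) and the seed storage gene SESA3 (-0.93 at day 1, adjusted p = 0.0488) were lower in sahh1. The other markers of root and seed were not called, and the summed levels of the 4 root markers, from 13.4 to 15.1 in sahh1 and from 13.5 to 15.2 in wild type over all ages, overlapped between the genotypes at each age. Those of the 3 seed markers lay apart at day 1, at 14.58 and 14.75 in sahh1 against 14.78 and 14.91 in wild type, and overlapped at the later ages. The part of cell types in the values below was not tested.

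Of the 33 loci, 17 are annotated as pseudogenes and 16 as protein-coding. That is 1.21% of the 1410 arm pseudogenes and 0.0654% of the 24459 arm protein-coding loci. The reference does not mark transposable element genes apart, so some may be counted as pseudogenes. By chromosome, 5 loci lie on chromosome 1, 11 on chromosome 2, 2 on chromosome 3, 4 on chromosome 4 and 11 on chromosome 5. All 33 have an entry in the reference, yet only 2 have a symbol there. These are NOGC1 (AT1G62580), annotated as a nitric oxide-dependent guanylate cyclase, and LBD26 (AT3G27940), a member of the plant family of LOB domain proteins. The other 31 are named by locus tag, with no role given.

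The list is short next to the loci that passed at single ages. A difference of at least 1 in favour of sahh1 was found for 269 arm loci at day 1 (1.03%), 207 at day 4 (0.794%), 214 at day 7 (0.821%) and 228 at day 10 (0.874%). The 33 loci make up 12.3%, 15.9%, 15.4% and 14.5% of those sets. Among arm loci, 441 passed at 1 age, 93 at 2 ages, 53 at 3 ages and 33 at all 4. In the opposite direction 769 arm loci were at least 1 lower at 1 age, 112 at 2 ages, 15 at 3 ages and 1 at all 4 (0.00383%). That locus is the pseudogene AT4G16870, whose sahh1 level was lower by 2.02 to 2.38 at the 4 ages.

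All 4 sahh1 arrays lay above all 4 wild-type arrays for 33 of the 33 loci at day 1 (6.64% of arm loci did so), 29 at day 4 (6.61%), 33 at day 7 (7.75%) and 33 at day 10 (4.59%). The rule used these arrays, so nothing further is read from the counts. The 4 loci whose arrays overlapped at day 4 are the pseudogenes AT1G49090, AT2G04770, AT2G05040 and AT2G15800. Over the 33 loci the median difference, sahh1 minus wild type, was 3.07 at day 1, 2.14 at day 4, 2.99 at day 7 and 3.15 at day 10, while the median of all arm loci lay between -0.03 and 0.02.

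**Figure D1:**
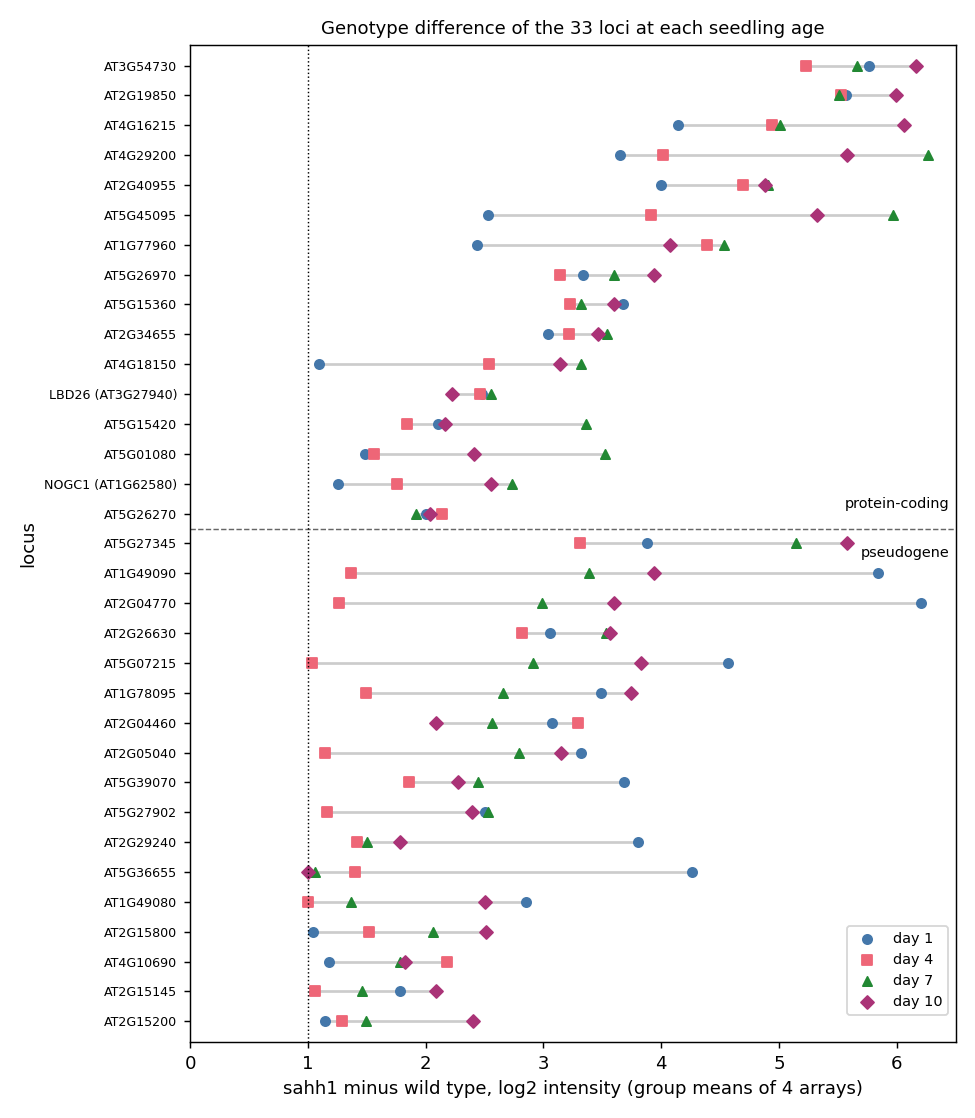
Difference in log2 intensity, sahh1 minus wild type, for each of the 33 loci (rows, protein-coding above and pseudogenes below) at days 1, 4, 7 and 10 (symbols); the dotted line marks the threshold of 1. AT3G54730 and AT2G19850 stay above 5 at all ages, and many pseudogenes have their day 4 value close to the threshold.

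The largest mean differences and, on the deposited scale, most of the steady ones belong to protein-coding loci. AT3G54730 had the highest mean over the ages, 5.71 on the log2 scale or 52.2-fold. Its log2 level was 12.70 and 12.55 in sahh1 at day 1 against 6.74 and 6.97 in wild type, and 11.07 and 10.92 in sahh1 at day 4 against 5.93 and 5.60 in wild type. At day 7 it was 13.17 and 12.76 in sahh1 against 7.86 and 6.75 in wild type, and at day 10 it was 12.55 and 12.36 in sahh1 against 6.15 and 6.44 in wild type. No wild-type sample came within 4 log2 units of a sahh1 sample of its age. The differences were 5.77, 5.23, 5.66 and 6.16 at days 1, 4, 7 and 10.

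AT2G19850 behaved much the same, with a mean difference of 5.65 or 50.3-fold. It stood at 12.97 and 12.82 in sahh1 against 7.28 and 7.35 in wild type at day 1, and at 11.24 and 11.58 in sahh1 against 5.61 and 6.15 in wild type at day 4. At day 7 the values were 13.29 and 12.98 in sahh1 against 8.06 and 7.19 in wild type, and at day 10 they were 12.79 and 12.39 in sahh1 against 6.53 and 6.66 in wild type. These are the 2 loci with a difference of at least 5 at all ages. The spread between the ages was 0.49, against differences of 5.51 to 5.99.

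AT4G16215 followed with a mean difference of 5.04 (32.9-fold). Its sahh1 samples were at 13.22 and 13.28 at day 1, against 9.04 and 9.17 in wild type, and at 12.38 and 12.19 at day 10, against 6.55 and 5.90 in wild type. AT2G40955 had a mean difference of 4.62 (24.6-fold), with 9.77 and 9.95 in sahh1 at day 1 against 5.83 and 5.89 in wild type. At day 10 it had 10.72 and 10.34 in sahh1 against 5.78 and 5.51 in wild type. The genotypes were apart in both loci at every age, and the difference was smallest at day 1 in each, at 4.14 for AT4G16215 and 4.00 for AT2G40955.

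AT4G29200 and AT5G45095 showed differences that depended more on age. AT4G29200 was at 10.45 and 10.66 in sahh1 against 6.84 and 6.96 in wild type at day 1, and at 9.94 and 10.44 in sahh1 against 6.11 and 6.24 in wild type at day 4. Day 7 gave 12.06 and 11.44 in sahh1 against 5.36 and 5.60 in wild type, and at day 10 at 10.79 and 10.48 in sahh1 against 5.11 and 5.01 in wild type. The resulting differences were 3.65, 4.02, 6.27 and 5.58, of which that at day 7 is the largest of any of the 33 loci at any age.

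AT5G45095 was at 11.60 and 11.64 in sahh1 at day 1, against 9.10 and 9.08 in wild type, the age at which its genotypes lay closest. At day 4 it had 9.10 and 10.09 in sahh1 against 6.05 and 5.30 in wild type, at day 7 it had 11.44 and 11.58 in sahh1 against 5.75 and 5.34 in wild type, and at day 10 it had 10.72 and 10.26 in sahh1 against 5.06 and 5.28 in wild type. The difference was 2.53 at day 1, 3.92 at day 4, 5.97 at day 7 and 5.32 at day 10. AT1G77960 likewise had its smallest difference at day 1, at 2.43, against 4.08 to 4.54 at the other ages. AT4G18150 had 1.09 at day 1 and 2.54 to 3.32 at the other ages.

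**Figure D2:**
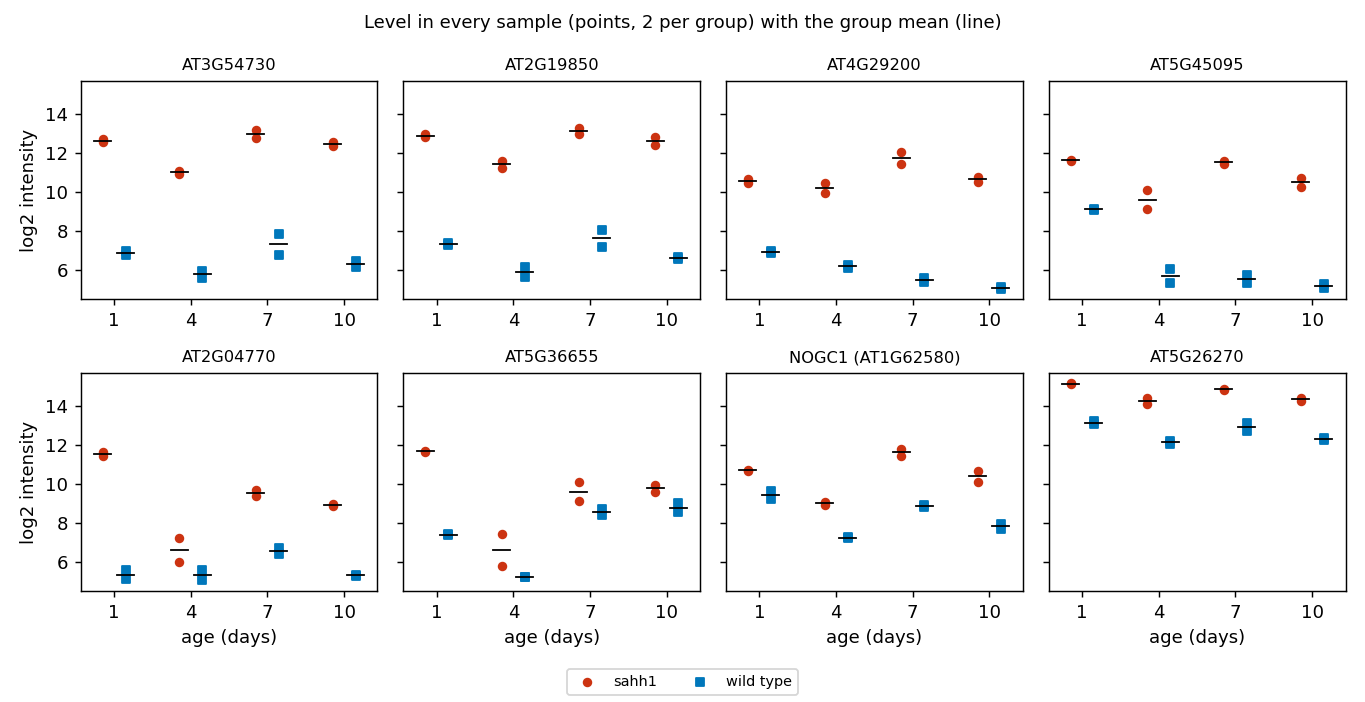
Log2 intensity of 8 of the loci at each age (days), with sahh1 samples as circles left of the wild-type samples as squares, 2 per group, and the group mean as a line. AT3G54730 and AT2G19850 are far above wild type at all ages, and AT5G26270 is bright in both genotypes. The group mean of AT2G04770 in sahh1 is closest to wild type at day 4, and that of AT5G36655 at day 10.

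On the deposited scale several protein-coding loci differed by about the same amount at all ages. AT5G26270 had the narrowest range, from 1.92 to 2.14, and LBD26 the next, from 2.22 to 2.55. AT5G15360 (3.23 to 3.67), AT2G34655 (3.04 to 3.54) and AT5G26970 (3.14 to 3.94) also kept within 1 log2 unit. The day 4 value of AT2G34655 is the mean of unlike sahh1 samples, 4.51 and 1.93 above the wild-type mean. A range under 1 was seen in 8 of the 16 protein-coding loci and in 1 of the 17 pseudogenes, AT2G26630 (2.82 to 3.57). This contrast depended on the scaling. After quantile normalization over all arrays AT2G34655 ran from 2.87 to 4.94, AT5G26970 from 2.78 to 3.94 and AT2G40955 from 3.35 to 6.18. AT5G26270, LBD26, AT5G15360 and AT3G54730 then kept within 1. So did several pseudogenes, such as AT2G15145 (1.26 to 1.98) and AT5G27902 (1.78 to 2.27).

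The 2 loci with a symbol, and AT5G26270, carried clear signal in wild type. They were not alone, since the pseudogene AT4G10690 had wild-type means of 8.77, 7.69, 9.58 and 8.83 at days 1, 4, 7 and 10. NOGC1 was at 10.71 and 10.68 in sahh1 against 9.23 and 9.65 in wild type at day 1, and at 8.92 and 9.09 in sahh1 against 7.21 and 7.29 in wild type at day 4. At day 7 it was at 11.81 and 11.44 in sahh1 against 8.84 and 8.93 in wild type, and at day 10 at 10.11 and 10.66 in sahh1 against 7.97 and 7.68 in wild type. Its difference was 1.25 at day 1, 1.76 at day 4, 2.74 at day 7 and 2.56 at day 10. LBD26 was at 10.45 and 10.46 in sahh1 against 8.12 and 7.85 in wild type at day 1, and at 11.02 and 10.85 in sahh1 against 8.46 and 8.96 in wild type at day 10. In both genes the samples of the genotypes did not overlap at any age.

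AT5G26270 was at 15.18 and 15.11 in sahh1 against 13.23 and 13.05 in wild type at day 1, and at 14.12 and 14.42 in sahh1 against 12.20 and 12.07 in wild type at day 4. Day 7 gave 14.83 and 14.88 in sahh1 against 13.15 and 12.71 in wild type, and at day 10 at 14.42 and 14.27 in sahh1 against 12.25 and 12.36 in wild type. It is the only 1 of the 33 loci that was above the median of all loci in wild type at any age. The word derepressed, which implies a silent starting state, therefore goes against its values. The wild-type mean of 2 loci at day 1, 22 at day 4, 0 at day 7 and 3 at day 10 lay within 1 log2 unit of the 5th percentile of the arrays, the dimmest range of the table. No sahh1 mean did so at any age. The rule put each sahh1 mean at least 1 above its wild-type mean, so nothing is read from that absence. For loci at that floor the true difference from wild type could be larger than the measured one.

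On the deposited scale the pseudogenes differed more between ages. Their median difference was 3.32 at day 1, 1.40 at day 4, 2.53 at day 7 and 2.51 at day 10, whereas the protein-coding loci had 2.78, 3.22, 3.57 and 3.77. The largest of the 4 differences fell at day 1 in 8 pseudogenes and 1 protein-coding locus, and the smallest fell at day 4 in 12 pseudogenes and 4 protein-coding loci. After quantile normalization over all arrays the pseudogene median was 2.82, 2.18, 2.24 and 2.33 and the protein-coding median 2.59, 3.97, 3.51 and 3.81, so the low value at day 4 was less marked. On that scale the pseudogene median varied less between ages than the protein-coding median. At single ages a difference of at least 1 was found for 13.8%, 2.13%, 4.26% and 7.16% of all arm pseudogenes at days 1, 4, 7 and 10, and for 0.286%, 0.679%, 0.626% and 0.478% of all arm protein-coding loci. A difference of at least 2 at all ages was kept by 3 pseudogenes and 11 protein-coding loci.

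AT2G04770 had the widest range of all, 4.94 log2 units. It was at 11.46 and 11.64 in sahh1 against 5.58 and 5.11 in wild type at day 1, and at 7.23 and 6.0 in sahh1 against 5.09 and 5.61 in wild type at day 4. Day 7 gave 9.36 and 9.70 in sahh1 against 6.39 and 6.70 in wild type, and at day 10 at 8.97 and 8.86 in sahh1 against 5.30 and 5.34 in wild type. The difference was thus 6.20 at day 1, the largest of the 33 at that age, and 1.26 at day 4.

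AT1G49090 ran in parallel, with 10.998 and 10.880 in sahh1 against 5.32 and 4.87 in wild type at day 1, and 7.62 and 6.10 in sahh1 against 5.66 and 5.34 in wild type at day 4. Its differences were 5.84, 1.36, 3.39 and 3.94. It directly follows AT1G49080 in the order of tags, and no other 2 of the 33 loci are direct neighbours. AT1G49080 had smaller differences in the same order of ages, 2.85, 1.00, 1.37 and 2.51. AT5G07215 had 4.57 at day 1, 1.04 at day 4, 2.92 at day 7 and 3.83 at day 10.

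AT5G36655 came close to the threshold at the later ages. It was at 11.67 and 11.66 in sahh1 against 7.36 and 7.45 in wild type at day 1, and at 7.43 and 5.80 in sahh1 against 5.20 and 5.22 in wild type at day 4. At day 7 it was at 9.12 and 10.11 in sahh1 against 8.41 and 8.69 in wild type, and at day 10 at 9.97 and 9.61 in sahh1 against 9.02 and 8.56 in wild type. The difference was 4.26 at day 1 but 1.06 at day 7 and 1.00 at day 10. The wild-type level of this pseudogene was well above the floor at those later ages.

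The strongest pseudogene on average was AT5G27345, with differences of 3.88, 3.31, 5.15 and 5.58 and a mean of 4.48 (22.3-fold). Its sahh1 samples were at 11.08 and 11.02 at day 10, against 5.21 and 5.75 in wild type. AT2G15145, AT2G15200, AT2G15800 and AT4G10690 had the smallest averages among the pseudogenes, 1.58 to 1.79. The other 12 pseudogenes had averages between 1.93 and 3.64.

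AT2G04460, like AT5G36655, had its smallest difference at day 10. It was at 8.01 and 8.07 in sahh1 against 4.78 and 5.16 in wild type at day 1, and at 11.31 and 11.99 in sahh1 against 9.23 and 9.89 in wild type at day 10. Its wild-type level at day 10 was thus far from the floor, and the difference there was 2.09, against 3.07 at day 1. In wild type it was the 1 locus of the 33 called higher at day 4 than at day 1, a result given with the age comparisons.

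Among the protein-coding loci not yet described, AT5G01080 and AT5G15420 had their largest difference at day 7. AT5G01080 was at 9.77 and 9.25 in sahh1 against 5.78 and 6.20 in wild type at day 7, a difference of 3.52. At day 10 it was at 9.0 and 9.05 in sahh1 against 5.69 and 7.53 in wild type, where the wild-type samples lay far apart. AT5G15420 was at 10.63 in both sahh1 samples at day 7, against 6.96 and 7.59 in wild type, a difference of 3.36, and its differences at the other ages were 1.84 to 2.16. AT2G34655 had the widest gap between sahh1 samples of any protein-coding locus, with 9.79 and 7.21 at day 4, against 5.24 and 5.33 in wild type.

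At day 4 the list rests unevenly on the 2 sahh1 samples. Set against the wild-type mean, the median difference of the pseudogenes was 1.93 in sahh1 sample 1 and 0.99 in sahh1 sample 2, and 15 of 17 passed 1 in sample 1 while 8 of 17 did in sample 2. For the protein-coding loci the medians were 3.41 in sample 1 and 3.11 in sample 2, and all 16 passed in each. The extreme case was AT2G15800, with 8.48 and 5.54 in sahh1 against 5.42 and 5.56 in wild type, where the second sahh1 sample lay inside the wild-type range. It was the only 1 of the 33 loci whose samples overlapped at day 4, and at days 1, 7 and 10 the samples of all 33 were apart. The rule used these samples and no share of all arm loci stands beside these counts, so nothing further is read from them. Without sahh1 day 4 sample 1 the rule found 26 loci, 24 of them shared with the 33, and without sahh1 day 4 sample 2 it found 46, of which 31 were shared. With the rule applied at days 1, 7 and 10 alone it found 73 loci, 42 of them pseudogenes and 31 protein-coding.

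**Figure D3:**
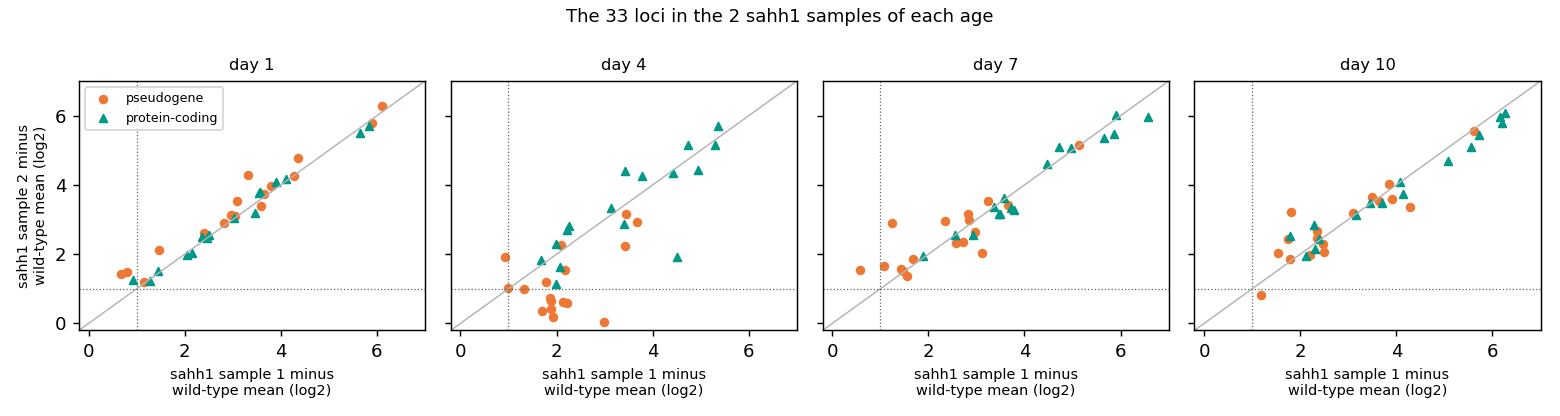
Difference from the wild-type mean (log2) of each of the 33 loci in sahh1 sample 1 (horizontal) and sahh1 sample 2 (vertical) at days 1, 4, 7 and 10, pseudogenes as circles and protein-coding loci as triangles; dotted lines mark 1 and the grey line equality. Most points lie near equality at days 1, 7 and 10, with exceptions such as AT2G15800 at day 7 (1.24 and 2.89). Past 1 were 30 of the 33 in sample 1 at day 1, 32 in sample 1 at day 7 and 32 in sample 2 at day 10. At day 4 many pseudogenes are past 1 in sample 1 and below it in sample 2.

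Close to the threshold, AT1G49080 (1.00 at day 4), AT5G36655 (1.00 at day 10) and AT5G07215 (1.04 at day 4) were just inside. MAPR2 (AT2G24940, 0.98 at day 7) and the pseudogenes AT2G02200 (0.98 at day 4) and AT3G29078 (0.96 at day 4) were just outside. AT3G29078 had a difference of 5.24 at day 1, so a locus outside the list can exceed most of its members at a single age. Of the 33 loci, 21 stayed in when any single sample was left out.

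Position was described by the distance to the pericentromeric ranges, with no test. Within 100 loci of such a range were 7 of the 33 (21.2%), all of them pseudogenes, against 3.83% of all arm loci. Within 200 loci were 12 (36.4% against 7.67%), of which 9 were pseudogenes and 3 protein-coding, and within 500 loci were 16 (48.5% against 19.1%), of which 13 were pseudogenes and 3 protein-coding. Arm pseudogenes as a whole also lie near these ranges: of the 17 listed pseudogenes, 41.2% were within 100 loci, 52.9% within 200 and 76.5% within 500, against 24.0%, 37.2% and 54.2% of all 1410 arm pseudogenes. AT5G36655 is 2 loci from the chromosome 5 range and AT5G27902 is 15. The distance counts loci in tag order, since no coordinates of the table's genome build were used. Some of the listed loci share a district: AT5G15360 and AT5G15420 are 5 loci apart, AT2G15145 and AT2G15200 are 7 apart, and AT1G77960 and AT1G78095 are 13 apart.

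Inside the pericentromeric ranges 36 of 4143 loci met the same rule (0.869%). Their median difference was 2.97 at day 1, 1.47 at day 4, 2.82 at day 7 and 3.22 at day 10, and 27 of the 36 were pseudogenes (75.0%), beside 72.8% of all loci in these ranges. On the arms 17 of the 33 were pseudogenes (51.5%), beside 5.41% of all arm loci. On the deposited scale the day 4 median was the lowest of the 4 ages in both sets. After quantile normalization the medians of the 33 were 2.78, 2.63, 2.83 and 2.96 at days 1, 4, 7 and 10. The pericentromeric loci were not examined on that scale.

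The loci directly before and after the 33 were measured by other probes and were not chosen by the rule, so they were tested in the limma fit across all loci. Of 64 such neighbours, 5 were called higher in sahh1 at day 1 (7.81% against 2.16% of all loci), 2 at day 4 (3.12% against 0.78%), 3 at day 7 (4.69% against 0.563%) and 3 at day 10 (4.69% against 0.823%). At 1 or more ages 9 were called higher (14.1% against 3.04%). The median difference of the 64 lay between -0.01 and 0.06 at the 4 ages, close to that of all loci. Pseudogenes were called more often in general: 5 of the 16 pseudogene neighbours (31.2%) were called higher at 1 or more ages, against 13.9% of all arm pseudogenes, and 4 of the 48 protein-coding neighbours (8.33%), against 1.1% of all arm protein-coding loci. Array weights left 0 of the 2 calls at day 4, and leaving out wild-type day 7 sample 2 left 0 of the 3 at day 7. By size alone, 12 of the 64 (18.8%) were at least 1 higher at 1 or more ages, against 2.38% of arm loci. A neighbour that was so at all ages would be among the 33 by the rule, so none could be counted here.

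The largest neighbour difference was that of AT2G19840, a pseudogene next to AT2G19850. At day 1 it was at 5.83 and 5.89 in sahh1 against 3.98 and 3.59 in wild type, a difference of 2.08 ± 0.22 (SE, limma adjusted p = 1.63e-04). At days 4, 7 and 10 its differences were -0.04, -0.01 and -0.07 and were not called, although AT2G19850 beside it stood more than 5 log2 units above wild type at those ages. The change of its genotype difference with age passed the limma interaction F test over all loci, which was run after quantile normalization (adjusted p = 0.0399).

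The pseudogenes AT2G15140 and AT2G15190 lie beside AT2G15145 and AT2G15200. AT2G15140 was at 5.76 and 6.51 in sahh1 against 4.31 and 4.21 in wild type at day 1 (difference 1.88 ± 0.23 SE, adjusted p = 4.31e-04). At day 10 it was at 6.95 and 7.24 in sahh1 against 5.09 and 5.15 in wild type (1.97 ± 0.23, adjusted p = 8.64e-04). AT2G15190 differed by 1.49 ± 0.25 at day 1 (adjusted p = 0.00488) and by 2.05 ± 0.25 at day 10 (adjusted p = 0.00119), with 6.44 and 6.64 in sahh1 against 4.59 and 4.39 in wild type at day 10. Both rose at days 1 and 10 and had differences of 0.15 to 0.79 at days 4 and 7 that were not called. The day 1 call of AT2G15190 was lost without wild-type day 1 sample 2 (adjusted p = 0.0704), and the day 1 calls of AT2G15140 and AT2G15190 were lost with the groups of day 1 alone (0.0781 and 0.188).

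The other called neighbours passed at a single age, except AT2G40960. AT4G10695 differed by 1.80 at day 7 (adjusted p = 0.0111), AT1G62590, next to NOGC1, by 1.62 at day 7 (adjusted p = 0.0421), and AT1G49070 by 1.51 at day 1 (adjusted p = 0.0398). These 3 calls were lost after quantile normalization (0.299, 0.136 and 0.245) and in several cases without 1 sample, with adjusted p of up to 0.0921 for AT4G10695 (without sahh1 day 7 sample 2), 0.415 for AT1G62590 (without sahh1 day 7 sample 1) and 0.398 for AT1G49070 (without sahh1 day 1 sample 1). AT2G40960, a protein-coding locus next to AT2G40955 that is named after its values were seen, differed by 1.25 ± 0.15 at day 4 (adjusted p = 0.00385), 0.97 at day 7 (adjusted p = 0.0137) and 0.95 at day 10 (adjusted p = 0.0106), and by 0.22 at day 1, which was not called. Its day 4 call was lost with array weights (adjusted p = 0.284) and with the groups of day 4 alone (0.422). Its day 10 call was lost when any single day 10 sample was left out (adjusted p = 0.0541 to 0.116) and its day 7 call without sahh1 day 7 sample 1 (0.175) or wild-type day 7 sample 2 (0.160). The last 2 called neighbours, also named after their values were seen, are NUDT6 (AT2G04450), next to AT2G04460, and the pseudogene AT5G27905, next to AT5G27902. NUDT6 differed by 1.36 at day 4 (adjusted p = 0.0210), a call lost without wild-type day 4 sample 2 (0.143) and with array weights (0.674). AT5G27905 differed by 1.02 at day 1 (adjusted p = 0.0463), a call lost after quantile normalization (0.102) and without wild-type day 1 sample 1 (0.417). Probe sequences were not used here, so signal shared between similar copies was not tested.

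**Figure D4:**
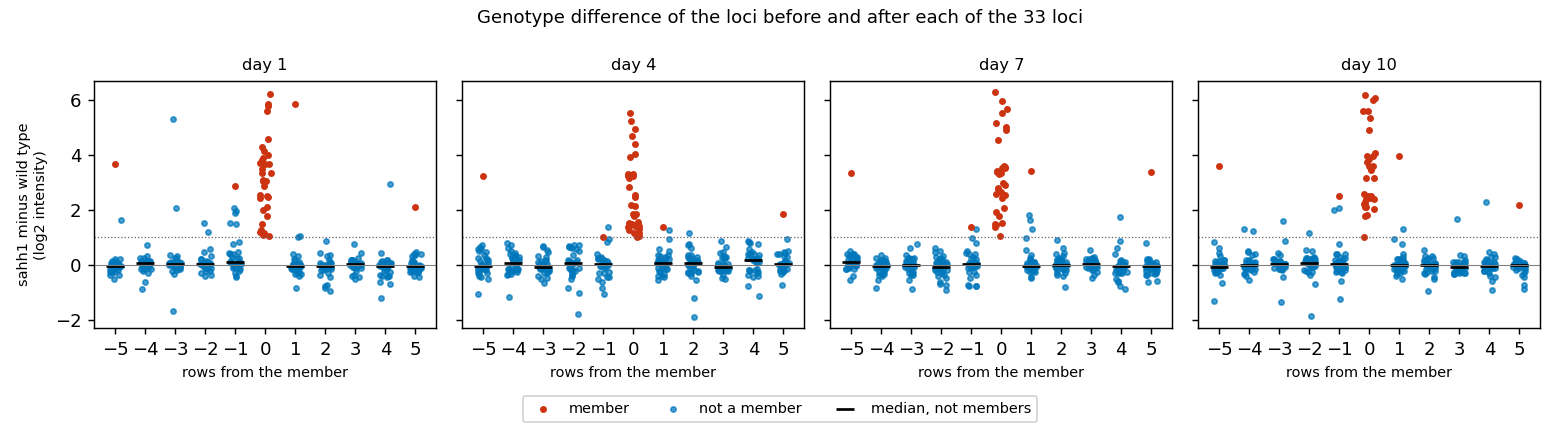
Difference in log2 intensity, sahh1 minus wild type, of the loci up to 5 places before (negative) and after each of the 33 loci in tag order, at days 1, 4, 7 and 10, with the 33 loci in red, other loci in blue and the median of the other loci as a bar; the dotted line marks 1. The medians stay near 0, and some of the loci directly beside the 33 are past 1.

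Levels in wild type alone were compared between ages after quantile normalization, with the same limma fit across all loci. The wild-type arrays also entered the rule. Array medians differed by age, so age and any hybridisation by age cannot be told apart in these comparisons. Between day 4 and day 1, 1 of the 33 loci was called higher at day 4 (24.1% of all loci were) and 15 lower (27.7%). Between day 7 and day 4, 6 were called higher at day 7 (10.9%) and 3 lower (11.4%), and between day 10 and day 7, 1 was called higher at day 10 (0.197%, with 0.0954% of all loci lower). Many of these calls depend on the scaling. With the deposited values centred on the array medians, which moves the median of all loci to 0.68, -0.60 and 0.24 in the 3 comparisons, 1 higher and 6 lower calls held at day 4 over day 1 (24% and 22.4% of all loci), 1 and 3 at day 7 over day 4 (5.99% and 11.4%), and 1 higher at day 10 over day 7 (0.197%, with 0.0922% of all loci lower).

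AT2G34655 was at 4.67 and 4.76 in wild type at day 4, against 8.98 and 8.84 at day 1, a difference of -4.20 ± 0.52 (SE, adjusted p = 5.54e-05, -2.49 when centred on medians). AT4G16215 was at 5.85 and 5.33 at day 4, against 9.0 and 9.17 at day 1 (-3.49 ± 0.24, adjusted p = 6.91e-07, -2.32 when centred). AT5G45095 was at 6.59 and 4.94 at day 4, against 9.05 and 9.09 at day 1 (-3.30 ± 0.45, adjusted p = 1.17e-04, -2.26 when centred). These 3 protein-coding loci thus carried more signal in 1-day wild-type seedlings than 3 days later, under either scaling.

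AT5G36655 also fell between day 1 and day 4 in wild type, by 3.07 on the log2 scale (adjusted p = 0.00123), and at day 7 it was higher than at day 4 by 3.03 (adjusted p = 0.00614), with -1.04 and 1.35 when centred. AT4G29200 was at 4.95 and 5.07 at day 7, against 6.78 and 7.05 at day 4 (-1.91 ± 0.23, adjusted p = 7.45e-04, -2.69 when centred). AT5G39070 had -1.92 between day 4 and day 1 after quantile normalization (adjusted p = 4.17e-05) but 0.12 when centred, so its direction is not settled. AT2G04460 rose by 1.63 ± 0.55 between day 1 and day 4 (adjusted p = 0.0281, 2.88 when centred), a call that was lost without wild-type day 1 sample 1 (0.120), wild-type day 1 sample 2 (0.0714) or wild-type day 4 sample 1 (0.188). AT1G77960 was higher at day 10 than at day 7 by 1.07 ± 0.14 (adjusted p = 0.0197, 1.09 when centred), which was lost without wild-type day 7 sample 1 or 2 (0.0782 and 0.188) or wild-type day 10 sample 1 or 2 (0.0657 and 0.0743), and also without any single day 1 sample (0.0559 to 0.0603). NOGC1 fell by 1.14 between day 1 and day 4 (adjusted p = 0.00138), and by 1.04 when centred.

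Genes of the silencing machinery and the methyl cycle were read as a list of 42, none of which is among the 33. At 1 or more ages 3 of the 42 were called, against 4.32% of all loci in either direction. They are SAHH1, given above, IBM1 and CMT3. By age, 2 were lower at day 1 (0.296% of all loci), while at day 4 there was 1 lower (0.833%) and 1 higher (0.78%). At day 7, 1 was lower (0.0658%), and 1 was lower at day 10 (0.201%). The median difference of the list was -0.01, 0.12, 0.08 and 0.06 at days 1, 4, 7 and 10, and that of all loci lay between -0.02 and 0.02.

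IBM1 encodes a histone demethylase that keeps lysine 9 methylation off genes, and its full-length transcript is known to need DNA methylation within the gene. It was lower in sahh1 at day 1, with 11.69 and 11.66 against 12.79 and 12.92 in wild type (-1.19 ± 0.19 SE, adjusted p = 0.00408). It was also lower at day 7 (-1.29, adjusted p = 0.00819) and day 10 (-1.08, adjusted p = 0.0182), and at day 4 the difference of -0.62 was not called (adjusted p = 0.144). CMT3, the methyltransferase of CHG sites, rose at day 4, with 12.47 and 12.43 in sahh1 against 11.69 and 11.24 in wild type (0.99 ± 0.15, adjusted p = 0.0123). The CMT3 call was lost with array weights (adjusted p = 0.579), with the groups of day 4 alone (0.612) and without wild-type day 4 sample 2 (0.0736). The replicate block ended the IBM1 calls at day 7 (0.0576) and day 10 (0.0695), as did the groups of the age alone (0.267 and 0.0617). The IBM1 call at day 1 was lost without wild-type day 1 sample 2 (0.0551), that at day 7 without sahh1 day 7 sample 2 (0.0760) or wild-type day 7 sample 2 (0.0985), and that at day 10 without any single day 10 sample (0.0541 to 0.216).

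A list of 10 loci known to be silenced by DNA methylation or imprinted also holds none of the 33. MPC (AT3G19350), an imprinted gene known from the endosperm, was the 1 of the 10 that was called at any age, against 4.32% of all loci. It was higher at days 1, 7 and 10, where 2.16%, 0.563% and 0.823% of all loci were. It was at 7.81 and 7.71 in sahh1 against 5.30 and 5.57 in wild type at day 7 (2.33 ± 0.21 SE, adjusted p = 2.20e-04). The difference was 1.06 at day 1 (adjusted p = 0.0215) and 1.28 at day 10 (adjusted p = 0.0136), while its day 4 difference of 0.87 was not called (adjusted p = 0.0779) and keeps it out of the 33. Its day 1 call was lost after quantile normalization (0.137), with the replicate block (0.0540) and without sahh1 day 1 sample 1 (0.178), sahh1 day 1 sample 2 (0.0961) or wild-type day 1 sample 1 (0.260), and its day 10 call without sahh1 day 10 sample 1 (0.145), wild-type day 10 sample 1 (0.0758) or wild-type day 10 sample 2 (0.122). With the groups of an age alone its calls at days 1, 7 and 10 were all lost (0.188, 0.0617 and 0.0722). The median difference of the 10 loci lay between -0.16 and 0.16 at the 4 ages.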

How the data were processed

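Arrays were normalized with RMA, per the submitters' processing notes, whose version is not given in the sources used here. The values in the authors' deposited table are linear intensities, 1 for each locus on each array. Log2 of the deposited intensity was taken, and paired arrays were averaged, giving 16 samples of 32 arrays. The fit used limma 3.58.1 (R 4.3.3) with a mean for each group, 8 residual degrees of freedom and a prior of 3.16 (genotype) or 2.54 (ages). Benjamini-Hochberg adjustment ran over the 30385 loci of the table, calls were made under 0.05, and the fit was tested on simulated data. Ages were compared after quantile normalization over 32 arrays. The plan had 32 arrays as replicates, and counts for that fit are among the alternatives.

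The loci and lists were chosen with earlier results of these data known. Named are the loci with the largest mean difference, the widest and narrowest range over ages, those nearest the threshold, and the largest called differences among neighbours, lists and ages, plus those with a symbol. Annotation by locus tag (29996 matched) is from a RefSeq table whose build may differ, so no coordinates are given, and no sequences were used. The number of arrays limits the precision.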

Additional observations from a re-analysis of the deposited data

Results flagged for a closer look

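The genotype difference of AT2G19840, the pseudogene next to AT2G19850, varied with age in the interaction F test of limma after quantile normalization (adjusted p = 0.0399 over all loci, n = 2 samples per group). It was 2.08 at day 1, -0.04 at day 4, -0.01 at day 7 and -0.07 at day 10 on the deposited scale. Both sahh1 samples were above both wild-type samples at day 1. Its sahh1 mean at day 1 was 5.86, above the 25th percentile of those arrays (4.87), while its wild-type mean there was 3.78, near the 5th percentile (3.52). At days 7 and 10 both genotypes were at 4.13 to 4.28, near the 5th percentile of those arrays, and the part of the floor in this pattern was not tested. Groups of 2 samples are too small for the check on single outlying samples.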

How the results depend on the processing

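The 33 loci became 46 after quantile normalization (30 shared), 31 after cyclic loess, 29 when all arrays of the genotypes had to be apart, 21 with a pseudocount of 32, 17 with a threshold of 1.5, 73 with the rule at days 1, 7 and 10 only and 57 with that rule after quantile normalization. The last 2 settings were chosen after the data were seen. Leaving out 1 sample at a time gave 26 to 46.

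Calls over all loci were 746 at day 1, 490 at day 4, 191 at day 7 and 311 at day 10. Quantile normalization gave 446, 1337, 66 and 184. With 32 arrays as replicates there were 1736, 5366, 1025 and 1303. The pair as a random block gave 2048 at day 4 and 511 at day 10, and array weights gave 1446 at day 1 and 17 at day 4. Fitting the groups of an age alone gave 11 at day 4 and 25 at day 7, and leaving out the dimmest 25% gave 424 at day 1. Leaving out 1 sample gave 513 to 856 at day 1, 73 (without wild-type day 4 sample 2) to 5033 (without sahh1 day 4 sample 2) at day 4, 105 (without sahh1 day 7 sample 1) to 226 at day 7 and 158 (without sahh1 day 10 sample 2) to 413 at day 10.

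Neighbours called higher numbered 5, 2, 3 and 3. They became 3 at day 1 and 1 at day 7 after quantile normalization, 1 at day 1 without the dimmest loci, 5 at each of days 4, 7 and 10 with 32 arrays, and 4 at day 4 and 5 at day 7 with the random block. Array weights left 0 at day 4, and the groups of an age alone left 2 at day 1, 0 at day 4 and 0 at day 7. Leaving out 1 sample gave 2 to 5 at day 1, 1 to 7 at day 4, 0 (without wild-type day 7 sample 2) to 3 at day 7 and 2 to 4 at day 10. The 3 machinery genes became 13 with 32 arrays, 5 with the random block, and 2 to 12 without 1 sample (12 without sahh1 day 4 sample 2).

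Wild-type calls between ages numbered 16, 9 and 1 of the 33. Centring on array medians gave 16 at day 7 over day 4 and 4 at day 10 over day 7, and at day 10 over day 7 there were 2 without the dimmest loci, 5 with 32 arrays and 3 with array weights. Without 1 sample they ran from 14 to 20, 5 to 13 and 0 to 3. Median centring turned the direction at day 4 over day 1 for AT1G49080 (1.28), AT1G78095 (1.58), AT2G40955 (0.56), AT3G54730 (0.062), AT5G01080 (0.19), AT5G27345 (0.69) and AT5G39070 (0.12). It did so at day 7 over day 4 for AT1G78095 (-0.90), AT2G15200 (-0.40), AT4G16215 (-0.29), AT5G27345 (-1.32) and AT5G39070 (-0.39). The cause of these changes was not tested.

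Same-numbered samples of the genotypes deviated together with correlations of -0.53, 0.17, 0.75 and -0.13 at days 1, 4, 7 and 10, so the numbers do not pair them alike at all ages. With the replicate block there were 695, 345, 159 and 357 calls over all loci, 6, 2, 3 and 3 among neighbours, 3 in the machinery list, and 17, 9 and 1 between wild-type ages. A block crossed at days 1 and 10, chosen after the data were seen, gave 837, 524, 221 and 414. With 2 samples per group and wild-type levels near the floor at day 4, small differences at that age are the least certain.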
